A study of Mus musculus with 3 samples.

Results

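The genes described here encode the mouse receptors that bind the constant part of antibodies, the Fc receptors, together with the signalling chain they share. The 7 genes were taken by name, as Fcgr1, Fcgr2b, Fcgr3, Fcgr4, Fcer1g, Fcgrt and Fcer2a, and a gene was measured where a probe set of the array carries its symbol alone. That held for 6 of the 7, out of 19938 genes in all, each with 1 probe set. Fcgrt, which encodes the neonatal Fc receptor, was not analysed here. Of the 6 measured genes, 5 lay above background on at least 1 array, and Fcer2a lay below it on all 3.

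Affymetrix Mouse Gene 1.0 ST arrays were used to measure RNA in CD11c(hi) CD11b+ dendritic cells (DCs) sorted from mouse spleen. The first group is Esam(lo) GFP(hi) cells of RBPJflox/flox CD11c-Cre Cx3cr1-GFP mice, in which Cre driven by the CD11c gene is meant to remove RBPJ, the nuclear partner of Notch receptors. The second is Esam(hi) GFP(lo) cells, and the third Esam(lo) GFP(hi) cells, of control littermates that carry the same floxed alleles and reporter but no Cre. Each group has 1 array made from the pooled spleens of 2 to 3 mice. CD11c-Cre acts in any cell that expresses CD11c, and the GFP reporter sits in the Cx3cr1 gene in every group. Neither age nor sex of the mice is stated. No test could be made on single arrays, and every difference is between pools of mice with no replicate check.

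Type I Fc gamma receptors let phagocytes and DCs take up IgG immune complexes and respond to them. The activating receptors Fcgr1, Fcgr3 and Fcgr4 bind IgG but signal through a separate subunit, the common gamma chain encoded by Fcer1g, whose activation motif (ITAM) recruits the kinase Syk. Fcgr2b is the inhibitory receptor of the family: it carries an inhibitory motif (ITIM) in its own tail, recruits the lipid phosphatase encoded by Inpp5d and raises the threshold for activation. Fcer2a encodes CD23, a lectin-type receptor for IgE that is known mainly from B cells.

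Values are log2 expression values. A gene was called higher or lower where arrays were at least 2-fold apart and the brighter of the pair was above background, taken on each array as the 95th percentile of 1194 chemosensory genes (olfactory and vomeronasal receptors). Background lay at 6.87 on the array labelled RBPJ-deficient, 7.17 on the control Esam(hi) array and 6.76 on the control Esam(lo) array. Rbpj itself read 10.04 on the array labelled RBPJ-deficient, 9.85 on the control Esam(hi) array and 9.85 on the control Esam(lo) array. It was thus not lower where it should have been deleted, and directions drawn from that array rest on its label. Whether the probes lie outside the deleted part is not known here. All 8 markers of classical DCs were above background on every array, among them Itgax, Flt3 and Zbtb46. Esam, the surface marker of the sort, was above background on the control Esam(hi) array alone (7.79), against 6.12 on the array labelled RBPJ-deficient and 6.57 on the control Esam(lo) array. Cx3cr1, the locus of the GFP reporter, ran the other way, with 9.58 on the array labelled RBPJ-deficient, 8.32 on the control Esam(hi) array and 9.58 on the control Esam(lo) array. Itgam, which encodes CD11b, read 10.79, 9.50 and 10.57 on the same 3 arrays. Cx3cr1 and Itgam were called lower in control Esam(hi) than in control Esam(lo) cells, beside 11.3% of all genes. Neither was called with the trend of the difference on level removed (-0.77 and -0.60).

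The upstream sequences of the 4 genes that differed between the subsets and of Fcgr1, the IgG receptor whose values were tied, are shown because the comparison concerns a transcription factor, RBPJ, and because factors of the ETS and IRF families are known regulators of myeloid genes. Each is the 250 bases before the RefSeq start of the gene (GRCm38.p6), 5′ to 3′ on the gene's strand. Capitals mark every match, on either strand, to 4 motifs. These are AGGAAG (an ETS core as bound by PU.1), GGAA and GAAA with 2 bases of any kind between them (an ETS-IRF composite), GAAA and GAAA spaced the same way (an IRF element), and TGGGAA (the core of the RBPJ motif).
Fcgr2b (chr1:170976072-170976321, minus strand): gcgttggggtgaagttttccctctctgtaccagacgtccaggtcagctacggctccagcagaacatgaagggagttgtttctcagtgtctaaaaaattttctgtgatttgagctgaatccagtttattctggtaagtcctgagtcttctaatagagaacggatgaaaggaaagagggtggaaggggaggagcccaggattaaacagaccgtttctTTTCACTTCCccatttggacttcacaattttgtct
Fcgr4 (chr1:171018676-171018925, plus strand): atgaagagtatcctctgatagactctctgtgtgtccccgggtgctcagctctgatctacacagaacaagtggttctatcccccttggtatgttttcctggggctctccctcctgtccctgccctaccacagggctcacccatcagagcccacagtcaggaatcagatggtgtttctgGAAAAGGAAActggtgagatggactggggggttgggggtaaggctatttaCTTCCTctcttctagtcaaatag
Fcgr3 (chr1:171059404-171059653, minus strand): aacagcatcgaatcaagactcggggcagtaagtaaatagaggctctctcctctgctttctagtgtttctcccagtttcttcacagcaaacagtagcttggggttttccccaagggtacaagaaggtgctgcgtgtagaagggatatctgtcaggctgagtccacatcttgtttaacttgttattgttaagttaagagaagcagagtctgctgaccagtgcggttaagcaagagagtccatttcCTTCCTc
Fcer1g (chr1:171234350-171234599, minus strand): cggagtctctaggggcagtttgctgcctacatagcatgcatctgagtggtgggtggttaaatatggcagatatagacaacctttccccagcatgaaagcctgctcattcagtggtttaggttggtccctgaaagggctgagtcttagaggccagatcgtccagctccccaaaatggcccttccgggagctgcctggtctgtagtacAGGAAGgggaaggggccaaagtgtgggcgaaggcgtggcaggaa
Fcgr1 (chr3:96293970-96294219, minus strand): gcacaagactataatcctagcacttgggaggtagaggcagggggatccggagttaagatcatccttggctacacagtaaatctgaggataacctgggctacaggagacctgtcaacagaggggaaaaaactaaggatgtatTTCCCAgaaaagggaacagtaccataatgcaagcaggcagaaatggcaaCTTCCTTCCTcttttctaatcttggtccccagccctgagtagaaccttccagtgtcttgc

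The ETS core AGGAAG was found once in Fcgr4, Fcgr3 and Fcer1g and at 2 overlapping places in Fcgr1, and 29.2% of 27025 promoters of the same length hold it. Fcgr2b had no such match. It held the ETS-IRF composite, which 2.38% of promoters hold, with its near end 26 bases before the start. The IRF element was found in Fcgr4 alone of the 5, 64 bases before the start, and 3.04% of promoters hold it. The composite can overlap with the ETS core, through GGAA, and with the IRF element, through GAAA. The RBPJ core TGGGAA was matched once, in Fcgr1, and is held by 21.5% of promoters. These matches describe letters in these windows and were not tested as binding sites. Fcgr3 has a second listed start 9 bases away.

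The inhibitory receptor was lower in Esam(hi) than in Esam(lo) cells of control mice. Fcgr2b (probe set 10360028) had log2 values of 10.07 on the array labelled RBPJ-deficient, 7.20 on the control Esam(hi) array and 10.12 on the control Esam(lo) array. Both Esam(lo) arrays were high, and the Esam(hi) value lay only 0.03 above that array's background. Taken as Esam(hi) minus Esam(lo), the control difference was -2.92, which is 7.58-fold lower in Esam(hi) cells. Of 8044 genes above background on both control arrays, 8 had a more negative difference than Fcgr2b. Genes below background on the Esam(hi) array were left out of this count, among them Ccr2 with a deposited difference of -3.32. With background set at the 99th percentile of the chemosensory genes the Esam(hi) value fell below it, and the fold then becomes at least 4.67-fold lower.

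Fcgr4 (probe set 10351509), the activating receptor for IgG2a and IgG2b complexes, had log2 values of 8.44 on the array labelled RBPJ-deficient, 5.70 on the control Esam(hi) array and 8.60 on the control Esam(lo) array. Again the Esam(lo) arrays were both high and the Esam(hi) array was low, here below background. The control difference of the log2 values was -2.90. Because the Esam(hi) signal was not above background, only a bound can be given, at least 2.70-fold lower, and with background at the 99th percentile it is at least 1.63-fold lower.

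Fcgr3 (probe set 10360040), the low-affinity activating receptor that also serves natural killer cells and macrophages, was lower in Esam(hi) cells by its deposited values. Its log2 values were 7.98 on the array labelled RBPJ-deficient, 6.82 on the control Esam(hi) array and 8.08 on the control Esam(lo) array. The Esam(hi) value was below background, and the control difference of -1.26 gives a bound of at least 1.88-fold lower, which by itself does not reach 2-fold. With background at the 99th percentile the bound is at least 1.14-fold lower, and at least 1.06-fold for the labelled array against control Esam(hi) cells. The extracellular parts of mouse Fcgr2b and Fcgr3 are known to be very similar. Whether the probes of these genes share signal is not known here, so the Fcgr3 value in particular is uncertain.

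**Figure D1:**
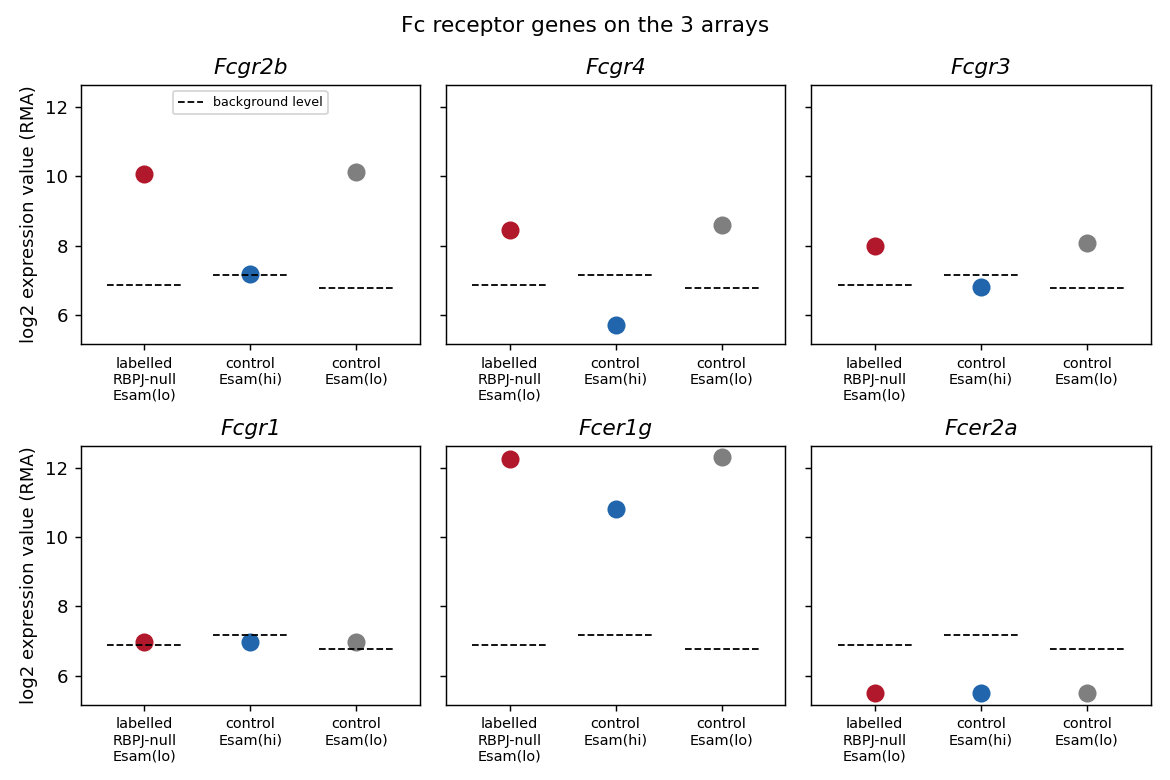
Log2 expression value (vertical axis) of each measured Fc receptor gene on the 3 arrays, with 1 point an array; the dashed lines are each array's background level. Fcgr2b, Fcgr4, Fcgr3 and Fcer1g are above background on both Esam(lo) arrays and lower on the control Esam(hi) array, where Fcgr4 and Fcgr3 are below background. The values of Fcgr1, near background, and of Fcer2a, below it, are tied.

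Fcgr1 (probe set 10500335), the high-affinity IgG receptor, stood apart from these genes. It read 6.97 on the array labelled RBPJ-deficient, 6.97 on the control Esam(hi) array and 6.97 on the control Esam(lo) array, the same value to the last deposited digit. It was above background by 0.10 on the array labelled RBPJ-deficient and by 0.21 on the control Esam(lo) array, and below it on the control Esam(hi) array. Exact ties are frequent in these values: 3786 of 19938 genes had 1 value on all 3 arrays. A tie so close to background does not show that Fcgr1 was equally expressed. Fcer2a (probe set 10576757) was tied too, at 5.50 on the array labelled RBPJ-deficient, 5.50 on the control Esam(hi) array and 5.50 on the control Esam(lo) array, in each case below background.

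The shared signalling chain was also lower in Esam(hi) than in Esam(lo) cells of control mice. Fcer1g (probe set 10360070) had log2 values of 12.26 on the array labelled RBPJ-deficient, 10.82 on the control Esam(hi) array and 12.30 on the control Esam(lo) array. It was far above background throughout, so its fold is measured on both sides: the control difference was -1.48, or 2.79-fold lower in Esam(hi) cells. Of the 8044 genes above background on both control arrays, 184 had a more negative difference. Tyrobp, the other ITAM adaptor of myeloid cells, had a smaller control difference of -0.62 (11.77 in control Esam(hi) cells and 12.39 in control Esam(lo) cells). With the trend of the difference on level removed the Tyrobp difference was -0.29 and that of Fcer1g -1.12. With quantile normalization they were -0.36 and -1.23.

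By the 2-fold rule, 4 of the 5 Fc receptor genes above background on either control array were lower in Esam(hi) cells and none was higher. Over all genes, 11.3% of 9466 were called lower and 0.792% higher, 1066 and 75 genes, and the median difference was -0.30. Fcgr3 and Fcgr4 entered the count through the Esam(lo) array alone. With the trend of the difference on level removed, all-gene calls were 390 lower and 215 higher (4.27% and 2.35% of 9137), and the same 4 Fc receptor genes were called lower, out of 4 tested. Fcgr1 (0.04) then leaned towards the Esam(hi) array, where it was below background, and so was not tested. The differences of these 4 genes were then -2.46 for Fcgr2b, -2.90 for Fcgr4, -1.16 for Fcgr3 and -1.12 for Fcer1g. The all-gene median was -0.41 with each array centred on its median, -0.11 with quantile normalization and 0.01 with the trend removed. At 3-fold, Fcgr2b and Fcgr4 stayed called by the deposited differences, beside 2.07% of all genes lower, but the bound of Fcgr4 is under 3-fold.

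**Figure D2:**
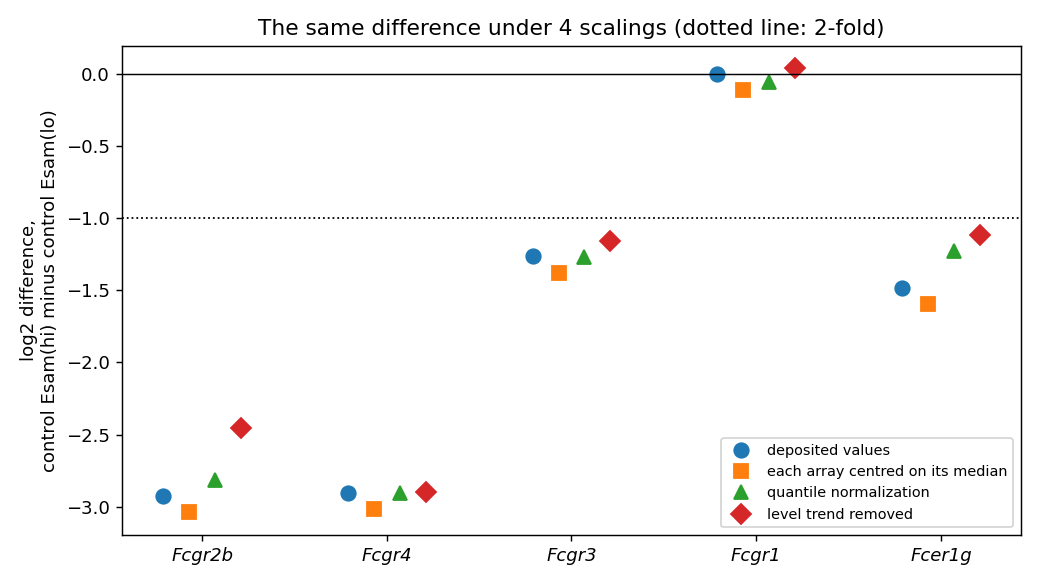
Log2 difference between the control subsets, Esam(hi) minus Esam(lo) (vertical axis), of 5 Fc receptor genes under the deposited values and 3 other scalings, with 1 point a scaling. Fcgr2b, Fcgr4, Fcgr3 and Fcer1g lie below the dotted 2-fold line under all 4, while Fcgr1 stays within 0.12 of 0. The points of Fcgr4 and Fcgr3 use Esam(hi) values below background under all 4.

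The array labelled RBPJ-deficient was set against Esam(lo) cells of control mice to ask whether loss of RBPJ goes with a change in Esam(lo) cells themselves. None of the 5 genes above background was 2-fold apart, beside 0.262% of 9541 genes that were. The differences, labelled array minus control Esam(lo), were -0.16 for Fcgr4, -0.10 for Fcgr3, -0.05 for Fcgr2b and -0.04 for Fcer1g, and Fcgr1 was tied. The 4 untied values were thus slightly lower on the labelled array, the farthest by 1.12-fold (Fcgr4). In this pair 2736 genes had higher values, 2859 lower and 3946 equal, and values this small cannot be told from array error here.

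Against control Esam(hi) cells the same array was higher for 4 of the 5 genes above background and lower for none, beside 12.9% of 9312 genes called higher and 1.18% called lower. Fcgr2b was 7.31-fold higher (10.07 on the labelled array and 7.20 on the control Esam(hi) array), and Fcer1g was 2.71-fold higher (12.26 and 10.82 on the same arrays). The Esam(hi) value of Fcgr2b lay only 0.03 above background. With background at the 99th percentile the Fcgr2b fold is a bound, at least 4.51-fold higher. Fcgr4 was at least 2.42-fold higher and Fcgr3 at least 1.76-fold higher, both bounds because the Esam(hi) values were below background. Both entered the count through the labelled array alone, and the bound of Fcgr3 by itself does not reach 2-fold. With the level trend removed, 4.96% of 9108 genes were called higher and 3.07% lower. The 4 calls held, those of Fcgr4 and Fcgr3 again on Esam(hi) values below background. At 3-fold, Fcgr2b and, by its deposited difference though not by its bound, Fcgr4 stayed called, beside 2.76% of all genes higher. The 3 comparisons share arrays, so this last one follows from the others and is no separate evidence.

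**Figure D3:**
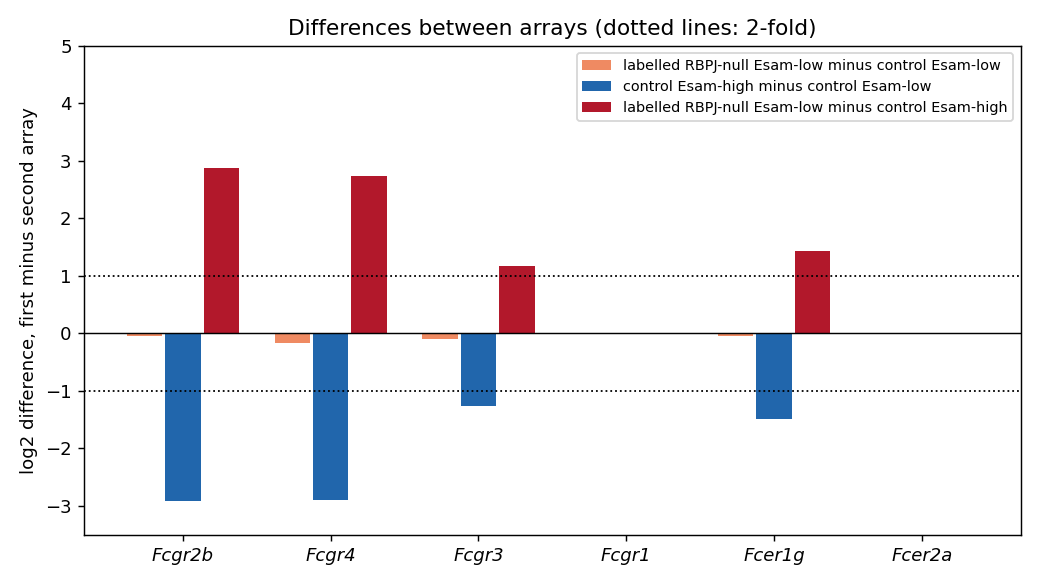
Log2 difference between arrays (vertical axis, first minus second array) of the 6 measured Fc receptor genes in the 3 comparisons; bars start at 0 and dotted lines mark 2-fold. Bars for the labelled array against control Esam(lo) stay within 0.16 of 0, and those of Fcgr2b reach 2.87 and -2.92; bars of Fcgr4 and Fcgr3 that involve the control Esam(hi) array use values below background there.

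**Figure D4:**
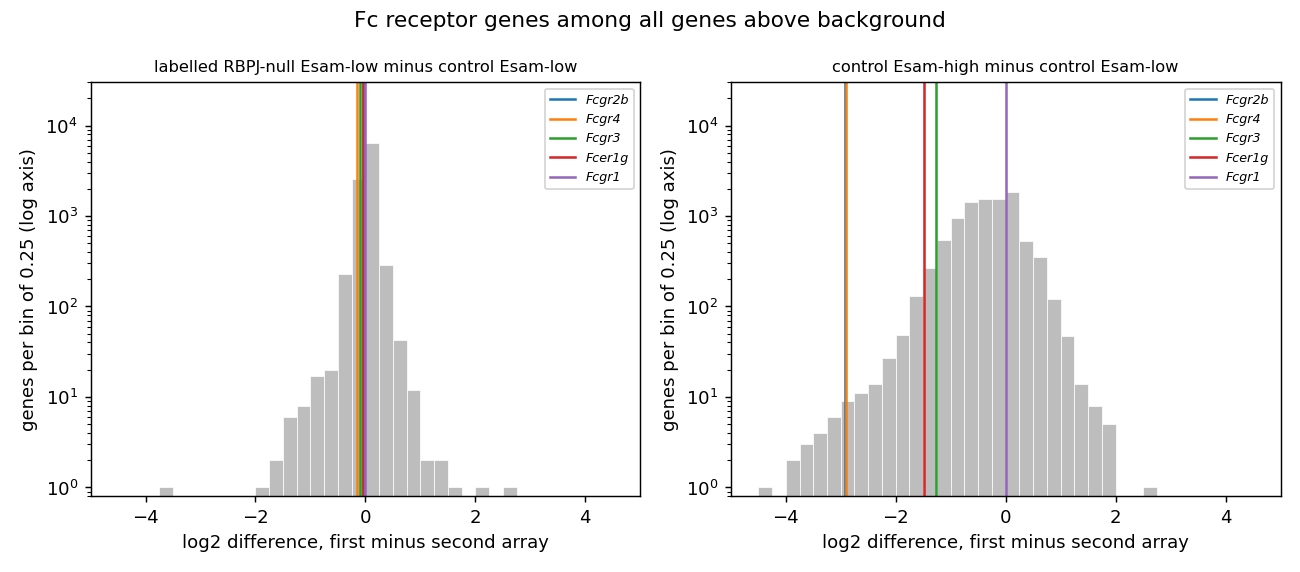
Number of genes above background (vertical log axis) by log2 difference (horizontal axis, bins of 0.25) in 2 comparisons, with coloured lines at Fc receptor genes. All 5 lines fall in the centre for the labelled array against control Esam(lo), while in the control comparison Fcgr2b lies in the left tail; the lines of Fcgr4 and Fcgr3 stand at deposited differences whose Esam(hi) values were below background.

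The genes whose 2 differences, labelled array minus control Esam(lo) and control Esam(hi) minus control Esam(lo), lay nearest to each receptor's were sought among 9311 other protein-coding genes above background. Distance is Euclidean over these 2 differences, in log2 units. On the control Esam(hi) array Fcgr4, Fcgr3 and Ets2 were below background, so distances that involve them rest on undetected signal there. For Fcgr2b they were Mpeg1, a pore-forming protein of phagocytes, at 0.06, and Fcgr4 at 0.11. For Fcgr4 they were the transcription factor gene Ets2 at 0.09 and Fcgr2b at 0.11. Fcgr3 lay nearest to Cd68, a lysosomal glycoprotein of macrophages, at 0.01 and to Nabp2, whose product binds single-stranded DNA, at 0.02. Fcer1g lay nearest to Fundc1 at 0.02, a mitophagy receptor, and to Sod2, the mitochondrial superoxide dismutase, at 0.03. Within 0.1 there was 1 gene for Fcgr2b and 1 for Fcgr4, against 71 for Fcgr3 and 47 for Fcer1g, and 1115 genes were tied exactly with Fcgr1. With 3 arrays such nearness is a description only.

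Fcgr2b, Fcgr4 and Fcgr3 are neighbours on chromosome 1, and Fcer1g lies beyond 7 other protein-coding genes on the same chromosome. Of those 7 genes 6 were measured, and with the 5 protein-coding genes on either flank 13 were measured in all. None of the 13 was 2-fold apart in any of the 3 comparisons, but only 6 of them were above background on any array, too few to set against the 11.3% and 12.9% of all genes called lower or higher. Their control differences ran from -0.89 (Usp21, a deubiquitinase) to 0.53 (Pcp4l1, below background on all arrays). Sdhc, a subunit of succinate dehydrogenase that lies between Fcgr3 and Fcer1g, read 9.41 on the array labelled RBPJ-deficient, 8.70 on the control Esam(hi) array and 9.47 on the control Esam(lo) array. The Fc-receptor-like genes Fcrla and Fcrlb, close to Fcgr2b, were below background on all arrays.

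Genes that act with Fc receptors were taken from 5 lists with 75 entries, of which 68 were on the array. In the control comparison 56 were tested, 4 were called lower in Esam(hi) cells and none higher, which is a share below the 11.3% of all genes. With the level trend removed none was lower and 1 was higher, beside 4.27% and 2.35% of all genes. None of 57 was called between the labelled array and control Esam(lo) cells, and 5 of 56 were called higher on the labelled array when set against control Esam(hi) cells, which is not above the 12.9% of all genes. With the trend removed, none of these 56 was called higher and 1 was called lower, beside 4.96% and 3.07% of all genes.

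Among ITAM kinases and adaptors 1 of 19 was lower in Esam(hi) cells, with a list median of -0.45. It was Lat2, an adaptor of the Syk pathway, at 8.07 on the control Esam(hi) array and 9.21 on the control Esam(lo) array, 2.21-fold lower. Syk, the kinase that binds the gamma chain, read 11.06 on the array labelled RBPJ-deficient, 10.91 on the control Esam(hi) array and 10.97 on the control Esam(lo) array. Its control difference of -0.05 became 0.35 with the level trend removed and 0.20 with quantile normalization. Malt1, which carries ITAM signals to NF-kB and is named after its values were seen, differed by 0.90 and was called higher with the trend removed (1.27) or after quantile normalization (1.16).

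Of the ITIM phosphatases and negative regulators 1 of 11 was lower, with a median of -0.24. Dok3, an adaptor that restrains signalling, read 7.84 on the control Esam(hi) array and 9.05 on the control Esam(lo) array, 2.31-fold lower, and -0.77 with the trend removed. Inpp5d, the phosphatase that Fcgr2b recruits, had a control difference of -0.24 that turned to 0.16 with the trend removed and to 0.03 with quantile normalization, while Fcgr2b remained lower under each. The tyrosine phosphatase gene Ptpn6 differed by -0.47 (10.66 on the control Esam(hi) array and 11.13 on the control Esam(lo) array).

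In the phagocytosis and actin list 1 of 16 was lower in Esam(hi) cells (median -0.55). Was, which drives actin branching, was 2.03-fold lower, at 8.21 on the control Esam(hi) array and 9.23 on the control Esam(lo) array. Against the same Esam(hi) array, Prkcd, a protein kinase C isoform, was 2.19-fold higher on the array labelled RBPJ-deficient (11.52 and 10.39). In the antigen export list 1 of 8 was lower (median -0.44). This was Snx1, a sorting nexin of endosomes, at 7.81 on the control Esam(hi) array and 8.95 on the control Esam(lo) array. Snx1 was 2.21-fold and Rab11a, a GTPase of recycling endosomes, 2.21-fold higher on the labelled array, again against control Esam(hi) cells. B2m, whose product pairs with the neonatal Fc receptor and with MHC class I, had log2 values of 13.74, 13.25 and 13.71 on the labelled, control Esam(hi) and control Esam(lo) arrays. Lat2, Dok3, Prkcd, Snx1 and Rab11a were the 5 genes called higher on the labelled array against Esam(hi) cells, and none of them was called with the trend removed.

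Other immunoglobulin receptors were mostly not detected. Of 12 on the array 10 were below background on all 3 arrays, including Fcer1a and Ms4a2, which form the high-affinity IgE receptor with Fcer1g, and Fcmr, Fcamr and Pigr, which bind IgM or IgA. The detected genes were Trim21, an antibody receptor of the cytosol (8.51 on the labelled array, 8.09 on the control Esam(hi) array and 8.51 on the control Esam(lo) array), and Fcrl1, known from B cells (9.09, 8.83 and 9.30 on the same arrays). Neither was 2-fold apart in any comparison.

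**Figure D5:**
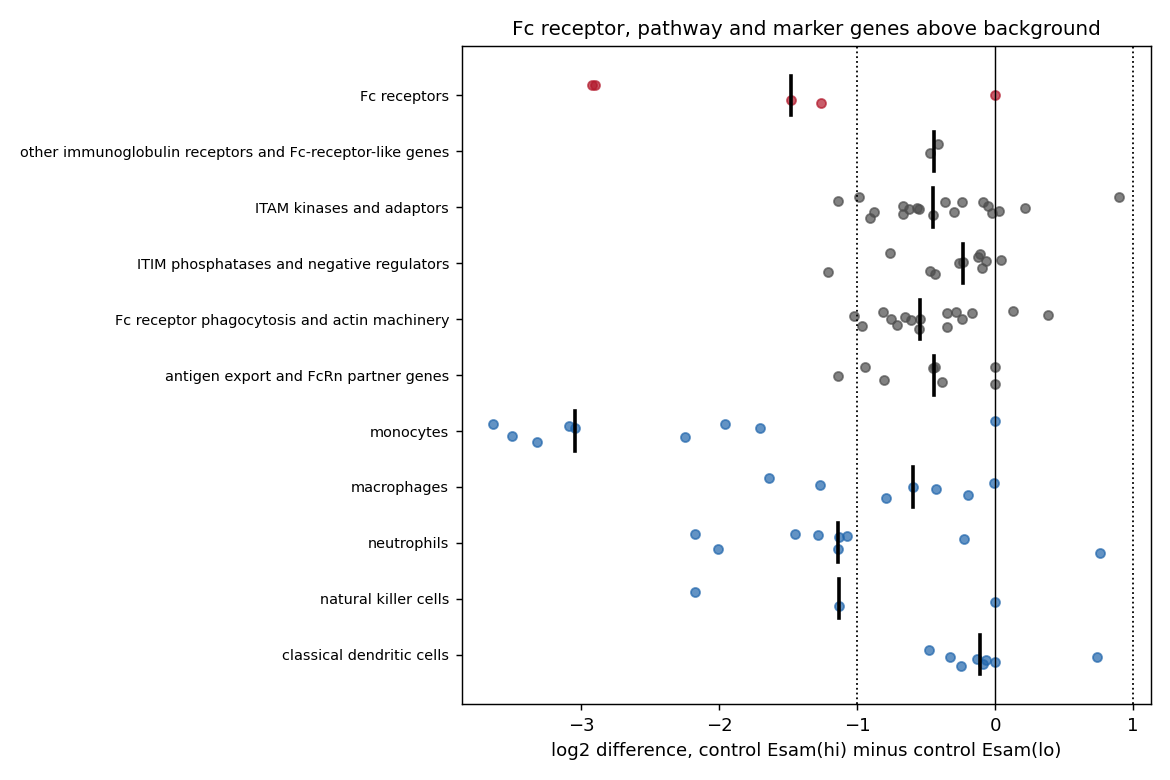
Log2 difference between the control subsets, Esam(hi) minus Esam(lo) (horizontal axis), for the Fc receptor genes (red), 5 pathway lists (grey) and markers of 5 cell types (blue). Each point is 1 gene above background on the brighter array, and some were below it on the other. Black bars are list medians and dotted lines mark 2-fold. The pathway medians lie between -0.55 and -0.24, the Fc receptor median at -1.48 and the monocyte median at -3.05.

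Most monocyte and neutrophil markers, and few macrophage markers, were lower in Esam(hi) cells, beside 11.3% of all genes. The monocyte list, 9 of 10 genes measured, had 8 of 9 lower (median -3.05), all but Nr4a1. Of these 8, Ccr2, Cd14 and F13a1 were below background on the control Esam(hi) array, so their deposited differences rest on undetected signal there. Nr4a1 read 13.36 on every array, a level that makes up most of the Esam(hi) sum. The summed linear levels of the list were 29238 on the array labelled RBPJ-deficient, 13083 on the control Esam(hi) array and 29917 on the control Esam(lo) array. The neutrophil list had 7 of 9 lower (median -1.14), with sums of 21468, 8313 and 19827 on the same 3 arrays. With the trend removed 3 of 9 genes of this list were lower, beside 4.27% of all genes. Its gene Mmp9 ran the other way, with a control difference of 0.76. The macrophage list had 2 of 7 lower, C1qb and Cd68, with sums of 6532, 3914 and 6785. With the trend removed C1qb alone was called lower in it, beside the same 4.27% of all genes. Adgre1 (-0.20) and Vcam1 (-0.01) of that list were not 2-fold apart, while Mertk, Cd5l, Marco, Siglec1 and Timd4 were below background everywhere. The part of these cells in the Fc receptor values was not tested, and in a bulk sample fewer cells of a type and less RNA per cell cannot be told apart.

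Markers of other cells known to carry Fc receptors were detected in part. Of 8 measured B cell markers Ms4a1, Cd79a, Pax5 and Cr2 were below background on every array, as was Fcer2a itself. The 4 detected ones were Cd79b, Cd22, Fcrl1 and, on the Esam(hi) array alone (7.59), Blk. None of them was 2-fold apart between the control subsets, with differences of -0.92, 0.28, -0.47 and 0.99 in that order. Cd79b was called 2.12-fold higher on the labelled array against control Esam(hi) cells, beside 12.9% of all genes. With the trend removed it was not called (0.59). The summed levels of the list were 2300 on the labelled array, 2478 on the control Esam(hi) array and 2564 on the control Esam(lo) array. Of 9 natural killer markers 6 were below background on every array, among them Ncr1 and Klrb1c. Klrk1 and Klrd1 were called lower in Esam(hi) cells, beside 11.3% of all genes, and Nkg7 read 7.47 on every array. The Klrk1 value was below background on the control Esam(hi) array (6.56), and Klrd1 was not called with the trend removed (-0.66). Of 8 markers of mast cells and basophils Fcer1a, Ms4a2, Cpa3, Gata2 and Cma1 were below background on every array. The detected ones were Prss34, Hdc and, on the Esam(lo) arrays alone, Mcpt8, none of them 2-fold apart between the control subsets. Hdc was called 2.25-fold higher on the labelled array against control Esam(hi) cells, beside 12.9% of all genes. With the trend removed it was not called (0.72).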

How the data were processed

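The deposited values are log2 expression values of 35556 probe sets on 3 arrays, made with RMA and Affymetrix Expression Console per the submitters' processing notes. RMA subtracts background, normalizes between arrays and condenses probes by median polish, which over few arrays gives many exact ties (at least 1 in 57.1% of genes). Software versions, the genome build and which arrays were normalized together were not given in the sources used here. In the platform annotation 21789 probe sets carry a single gene, 1621 list more than 1 and 12146 list no gene; Entrez numbers of 21698 were found in a gene table of GRCm38.p6, used for names, gene types and gene order, and 91 were not. A gene with several probe sets (999 genes) was represented by the brightest on average.

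Differences of log2 values were computed over the whole table in Python 3.11.15 with numpy 2.4.6, pandas 2.3.3 and statsmodels 0.14.6. The calling code was tested on simulated folds in genes far above background, which does not cover calls or bounds near background. Groups follow the sample titles, 1 array each, so precision is limited by the number of arrays and no p-value or standard deviation is given. A gene entered a comparison where the brighter array was above background. Where the dimmer was not, the fold is a bound against that array's background level. Alternatives were 3 other background filters, 3 other scalings (the level trend by lowess with a fraction of 0.3), 1.5-fold and 3-fold thresholds, and the mean over probe sets. Upstream sequences came from RefSeq (GRCm38.p6), which held all 7 genes.

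Named genes were all 7 receptor genes, the 2 nearest genes to each receptor above background (none for Fcgr1, which is tied with many), the partners Tyrobp, Syk, Inpp5d, Ptpn6 and B2m, sort markers, and up to 4 called genes of each list and direction. Members, lists and tests were chosen with earlier results of these data known. The motifs and the chromosome neighbours were chosen after the values were seen.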

Additional observations from a re-analysis of the deposited data

How the results depend on the processing

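The directions of Fcgr2b, Fcgr4, Fcgr3 and Fcer1g against control Esam(hi) or between the control subsets did not turn under the 3 other scalings, the only ones of the 9 alternatives that can move a log2 difference of these genes. Over these the control difference ran from -3.04 to -2.46 for Fcgr2b, -3.02 to -2.90 for Fcgr4, -1.38 to -1.16 for Fcgr3 and -1.60 to -1.12 for Fcer1g. At a 3-fold threshold 2 of the genes stayed called in each of the comparisons with control Esam(hi) cells, Fcgr2b and Fcgr4 (Fcgr4 by a value below background, with bounds under 3-fold), and Fcgr3 also lost its call with background at the 75th percentile of all genes, where it was too dim to be tested. Over all genes the 3-fold threshold gave 5 genes for the labelled array against control Esam(lo), 208 for the control subsets and 277 for the labelled array against control Esam(hi). The 1.5-fold threshold gave 85, 3349 and 3542. With the level trend removed 605 and 732 genes were apart in the comparisons with control Esam(hi) cells, against 1141 and 1313 on the deposited values. Background at the 75th percentile left 16 of 25 genes for the labelled array against control Esam(lo). No paired analysis was possible because each group has 1 array and the labels give no replicate numbers. Signal near background limits Fcgr1, Fcgr3 and Fcgr4, and for Fcgr2b the Esam(hi) value.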
